A study of Mus musculus with 28 samples.

Results

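The replication-dependent histone genes were followed here as every row of the deposited tables whose name begins with Hist1h, Hist2h, Hist3h or Hist4h, with 1 row whose name marks a pseudogene left out. This gave 70 rows of 37583, of which 6 are named for the linker histone H1, 20 for H2A, 18 for H2B, 13 for H3 and 13 for H4. Classes go by these names, and GENCODE M21 types 4 of the rows as something other than protein-coding: Hist1h2aj and Hist1h2al as pseudogenes, Hist2h2bb as a long non-coding RNA and 1 of 2 rows named Hist2h3c1 as a processed transcript. In GENCODE M21 (build GRCm38) 56 of these rows lie on chromosome 13, 11 on chromosome 3, 2 on chromosome 11 and 1 on chromosome 6.

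The libraries were sequenced from mouse total RNA after removal of ribosomal RNA, so transcripts without a poly(A) tail were kept. Embryoid bodies (EBs) were aggregates collected on day 5 after withdrawal of LIF, and embryonic stem cells (mESCs) had grown on feeder cells with LIF and the inhibitor mix 2i, with feeders removed by plating. The CJ7 line was given as Eed null, EloA K754M, EloA K754R and wild type (WT), with 2 libraries of each at each stage. Eed is a core subunit of the histone H3 methyltransferase PRC2, and EloA (gene Tceb3) encodes Elongin A, an elongation factor of RNA polymerase II in which K754M and K754R replace 1 lysine. The CCE line was given as EloA null and EloA WT mESCs, with 3 libraries each, and as 3 groups of 2 EB libraries. Of these, pair A is called EloA null by its titles and heterozygous by its data columns, pair B the reverse, and the third is EloA WT, so pairs A and B were given no genotype. The labels name neither the number of clones behind a genotype nor separate cultures behind the replicates. Every p-value below therefore measures the spread between libraries, which may be technical, and in whole-culture RNA fewer cells of a type and less RNA per cell cannot be told apart.

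Replication-dependent histone genes supply the nucleosome proteins that package newly copied DNA, and their messenger RNAs build up in S phase. They are short genes without introns that stand in clusters, and many encode the same or nearly the same protein. Their messenger RNAs end in a conserved stem-loop instead of a poly(A) tail, and the stem-loop is bound by Slbp, the stem-loop-binding protein, which is needed for processing and translation. A few members are germline forms: Hist1h2aa and Hist1h2ba encode the testis-enriched TH2A and TH2B, and Hist1h1t encodes the testis linker histone H1t.

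The stem-loop was searched for in GENCODE M21 transcripts as the 16 letters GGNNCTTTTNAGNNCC on the transcribed strand. It was present in 45 of the 70 rows, namely 4 of H1, 11 of H2A, 10 of H2B, 9 of H3 and 11 of H4, against 0.355% of 21951 protein-coding genes. The stem-loops of the rows described most below are shown with these 16 letters in capitals, because they are the shared 3′ end that total RNA libraries capture and poly(A) selection would lose.
Hist1h1t: caaaGGCTCTTTTAAGAGCCactt
Hist1h2bm: caaaGGCTCTTTTCAGAGCCacta
Hist1h3d: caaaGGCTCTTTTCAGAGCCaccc
Hist1h4i: taaaGGCCCTTTTTAGGGCCacca
Hist1h4j: taaaGGTCCTTTTCAGGACCacca
Hist1h4m: taaaGGCCCTTTTCAGGGCCatc
Hist1h4n: taaaGGCCCTTTTCAGGGCCatcc
Hist3h2ba: caaaGGCTCTTTTCAGAGCCacct
The pattern was not found in the annotated transcripts of Hist1h2aa and Hist1h2ba, which says only that these letters are not in those sequences.

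Promoters, taken from RefSeq on GRCm38.p6 as the 250 bases before and 50 bases after each start, were available for 60 rows. They were searched on both strands for 4 motifs known from histone promoters: the octamer ATTTGCAT, the CCAAT box, the TATA motif TATAAA and the AC box AAACACA. The divergent pair Hist1h2aa and Hist1h2ba is shown because both genes gave large differences in Eed null cells and share 1 intergenic stretch. Capitals mark the 4 motifs on either strand, and none of the marked motifs overlaps another.
Hist1h2aa, chr13:23934187-23934486, plus strand: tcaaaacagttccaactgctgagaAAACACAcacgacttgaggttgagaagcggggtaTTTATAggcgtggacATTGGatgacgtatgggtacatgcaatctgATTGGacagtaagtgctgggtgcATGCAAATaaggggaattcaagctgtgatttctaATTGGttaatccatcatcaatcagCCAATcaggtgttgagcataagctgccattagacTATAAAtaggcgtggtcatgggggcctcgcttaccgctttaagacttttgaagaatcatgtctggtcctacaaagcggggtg
Hist1h2ba, chr13:23934107-23934406, minus strand: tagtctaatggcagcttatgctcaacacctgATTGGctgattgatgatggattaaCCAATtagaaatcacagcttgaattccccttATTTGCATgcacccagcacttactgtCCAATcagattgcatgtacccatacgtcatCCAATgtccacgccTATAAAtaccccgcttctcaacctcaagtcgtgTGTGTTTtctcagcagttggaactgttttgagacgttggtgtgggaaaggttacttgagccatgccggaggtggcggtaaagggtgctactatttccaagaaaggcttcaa
These windows overlap by 220 bases, the starts lie 281 bases apart, and the same single octamer stands 117 bases from the start of Hist1h2aa and 157 bases from that of Hist1h2ba. A pair of H4 genes is shown next, because their levels moved in opposite directions in Eed null cells although both encode H4.
Hist1h4m, chr13:21811496-21811795, plus strand: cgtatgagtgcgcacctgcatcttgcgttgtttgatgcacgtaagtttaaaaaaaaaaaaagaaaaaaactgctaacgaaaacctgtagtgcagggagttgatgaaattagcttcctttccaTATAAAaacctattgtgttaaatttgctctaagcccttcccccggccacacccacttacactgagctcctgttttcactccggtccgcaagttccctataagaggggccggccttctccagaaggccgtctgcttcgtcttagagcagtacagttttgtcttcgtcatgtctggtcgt
Hist1h4i, chr13:22041313-22041612, minus strand: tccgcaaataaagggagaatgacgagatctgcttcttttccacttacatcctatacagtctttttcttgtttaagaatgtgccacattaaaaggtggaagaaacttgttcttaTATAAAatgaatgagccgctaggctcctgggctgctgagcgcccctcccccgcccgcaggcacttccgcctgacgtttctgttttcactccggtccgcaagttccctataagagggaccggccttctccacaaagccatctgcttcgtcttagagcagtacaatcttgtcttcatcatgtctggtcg
Their longest common run was 38 bases, and the best ungapped alignment had 148 identical bases of 300.

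Motif content differed by histone class. The octamer was found in 43.75% of 16 H2A promoters and 37.5% of 16 H2B promoters, in none of the 6 H1, 10 H3 and 12 H4 promoters, and in 1.754% of 27025 promoters of all genes. The CCAAT box was found in every H1, H2A, H2B and H3 promoter searched but in 3 of 12 H4 promoters, against 37.92% of all promoters. The AC box was found in 83.333% of H1 promoters and 7.138% of all promoters, and TATAAA in 40.0% to 66.667% of promoters by class and 14.161% of all. A match is a run of letters and not a measured binding site.

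Copies limit what a single row can show. With a window of 50 bases, 89.8% of the windows of Hist1h4m also occurred in Hist1h4n and 34.3% in Hist1h4i, while Hist1h1t, Hist1h1a and Hist1h1b shared none with any row searched. Hist2h2aa1, Hist2h2aa2, Hist2h3b and 1 of 2 rows named Hist2h3c1 were listed at 0 in every library, and the other Hist2h3c1 row reached at most 0.0236 RPKM (reads scaled to the length of the gene in kilobases and to the depth of the library in megareads). These rows shared 89.7% to 100% of their windows with other genes, and how reads with several possible origins were counted is not given in the sources used here. In GENCODE M21, 24 of the 70 rows overlapped a gene on the opposite strand, Hist1h2aa among them, and the use of strand is likewise not given. Values of single rows are therefore uncertain wherever copies or overlapping genes exist, and sums over a class are given beside them.

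The targeted genes were measured first. Eed was at 15.8 and 16.3 RPKM in Eed null EBs, against 49.6 and 55.3 RPKM in WT EBs, and at 22.3 and 22.1 RPKM in Eed null mESCs, against 105 and 119 RPKM in WT mESCs. Both falls passed the test, at −1.68 ± 0.10 on the log2 scale (SE, limma adjusted p = 7.37e-05) in EBs and −2.30 ± 0.25 (adjusted p = 0.00474) in mESCs. Tceb3 was at 8.02, 6.33 and 6.17 RPKM in EloA null CCE mESCs, against 11.7, 11.2 and 10.7 RPKM in EloA WT (−0.68 ± 0.11, limma adjusted p = 0.0229). The estimated depth was 28.6 to 39.8 megareads in CJ7 EBs, 23.6 to 30.8 megareads in CCE EBs, 11.0 to 18.2 megareads in CJ7 mESCs and 24.2 to 46.2 megareads in CCE mESCs. EloA null libraries of CCE mESCs were shallower than their controls, with at most 34.7 megareads, against at least 42.8 megareads in EloA WT.

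A set of 6 mESC libraries stood apart. The K754M, K754R and WT libraries of CJ7 mESCs had summed histone levels of 7560.3 to 13919.7 RPKM, while the other 8 mESC libraries, Eed null CJ7 among them, had 19753 to 30088 RPKM. Snord118, the U8 small nucleolar RNA and itself without a poly(A) tail, was at 615 to 5373 RPKM in the same 6 libraries and at 42.2 to 118 RPKM in the other 8. No CJ7 mESC comparison can be made without these libraries, since all of its WT libraries are among them. Their part in the mESC results was not tested.

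Summed over all rows, histone RNA was at 29797 and 21560.0 RPKM in Eed null EBs and at 34128 and 29526.5 RPKM in WT EBs. In mESCs the same sum was 20581 and 19753 RPKM in Eed null, against 11004 and 10154 RPKM in WT. The group means were 25679 ± 5825 RPKM in Eed null EBs against 31827 ± 3253 RPKM in WT EBs, and 20167 ± 585 RPKM in Eed null mESCs against 10579 ± 601 RPKM in WT mESCs (SD, n = 2 each). The ranges of Eed null and WT libraries overlapped in EBs and lay apart in mESCs. In all 7 EB groups the library numbered 1 had the larger sum, and the Eed null EB sum was below the WT EB sum at either number, though the labels do not say that a number marks a shared batch. As a ratio of Eed null to WT means, EBs gave 0.807 for all rows, from 0.744 for H2A to 0.881 for H2B, and mESCs gave 1.91, from 1.42 for H1 to 2.62 for H3. These sums are described without a test.

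**Figure D1:**
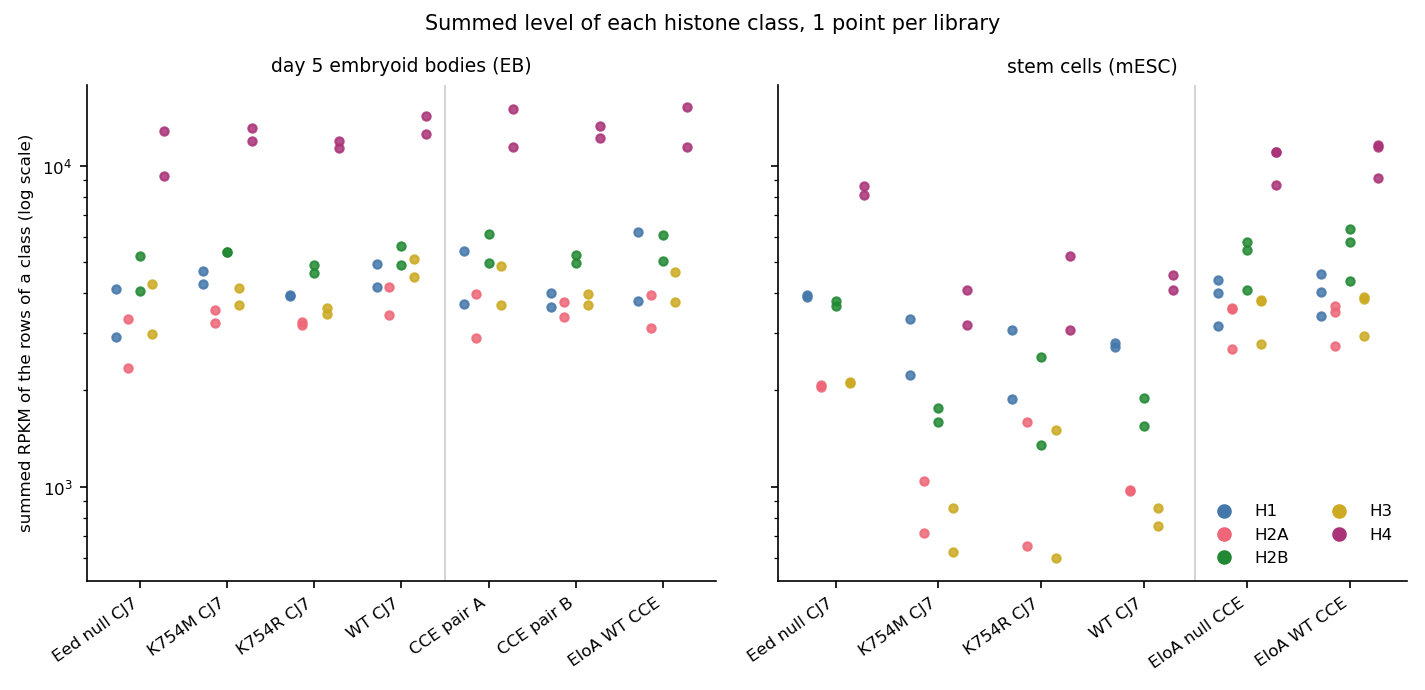
Summed RPKM of each histone class (log axis) in every library, with EB groups in the left panel and mESC groups in the right, 1 point per library, colours for the 5 classes and a grey line between CJ7 and CCE groups. In the right panel Eed null CJ7 libraries, with H4 sums of 8655 and 8078 RPKM, lie nearer to the CCE libraries than to WT CJ7, with 4571 and 4084 RPKM.

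The same row led each class in both tables, by its mean RPKM over all libraries. In EBs these means were 1820.4 RPKM for Hist1h1a, 700.3 for Hist1h2ab, 1391 for Hist1h2bb, 859 for Hist1h3e and 2519 for Hist1h4d. The mESC means were 1905 RPKM for Hist1h1a, 372 for Hist1h2ab, 917 for Hist1h2bb, 421 for Hist1h3e and 1677 for Hist1h4d. RPKM is a level per length, so this ranking within a table depends on the gene lengths the authors used. The annotation release behind those lengths is not given in the sources used here. The limit on copies given above applies too. Of these 5 leading rows only Hist1h3e, called lower in EBs, and Hist1h2ab, also called lower in EBs, passed the test in either Eed null comparison. Hist1h1a was at 2186 and 1172 RPKM in Eed null EBs, against 2037 and 1633 RPKM in WT EBs, and the libraries of both genotypes overlapped.

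In Eed null EBs the histone genes split: germline forms and a few H2B and H4 rows rose, while a larger number of rows fell, mostly by less. Of 62 rows tested, 6 rose and 22 fell, and 8 rows were too low to test. Among all 19300 genes tested 30.4% were called, 19.2% higher and 11.2% lower, so that 9.68% of histone rows higher lies under the background and 35.5% lower lies above it. The median log2 change of the histone rows was −0.33, against 0.05 for all genes tested, and 45 of 62 rows were below 0. By class 1 of 6 H1 rows rose and 3 fell, 1 of 18 H2A rows rose and 5 fell, 2 of 15 H2B rows rose and 7 fell, none of 10 H3 rows rose and 5 fell, and 2 of 13 H4 rows rose and 2 fell. A row was called at a limma-trend adjusted p below 0.05, adjusted by Benjamini and Hochberg over all genes tested.

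Hist1h4m, which encodes H4 and lies at 21811746 to 21812147 on chromosome 13 (GRCm38, plus strand), gave the largest rise. It was at 474 and 377 RPKM in Eed null EBs, against 1.98 and 2.95 RPKM in WT EBs. Both Eed null libraries lay far above WT, and the change was 7.18 ± 0.19 on the log2(RPKM + 0.5) scale (SE, limma adjusted p = 8.25e-06). From the value that 1 read gives, these levels amount to about 7591 and 5275 reads in Eed null EBs, against 24.96 and 37.99 in WT EBs. Scaled to depth, the ratio of reads was 174, with a 95% interval of 136 to 226 that covers counting error only.

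The TH2A and TH2B genes rose together. Hist1h2aa was at 66.0 and 35.6 RPKM in Eed null EBs, against 2.61 and 3.68 RPKM in WT EBs (3.76 ± 0.37, limma adjusted p = 0.000408). Hist1h2ba was at 61.0 and 37.2 RPKM in Eed null EBs, against 4.33 and 5.54 RPKM in WT EBs (3.16 ± 0.24, limma adjusted p = 0.000129). For both genes the higher level was in the first Eed null library and neither genotype's libraries reached the other's range. Hist1h1t, the testis H1, was at 21.1 and 12.7 RPKM in Eed null EBs, against 5.80 and 5.76 RPKM in WT EBs (1.43 ± 0.27, limma adjusted p = 0.00703).

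The remaining rises were in rows of ordinary H2B and H4. Hist1h2bm was at 516 and 366 RPKM in Eed null EBs, against 149 and 136 RPKM in WT EBs (1.61 ± 0.17, limma adjusted p = 0.000605). Hist1h4j was at 709 and 596 RPKM in Eed null EBs, against 338 and 296 RPKM in WT EBs (1.04 ± 0.15, limma adjusted p = 0.00228). All 6 rises were also called whichever of the 4 libraries was left out.

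Falls were led by Hist1h4i, another H4 gene, at 22040636 to 22041362 on chromosome 13 (GRCm38, minus strand). It was at 179 and 114 RPKM in Eed null EBs, against 825 and 815 RPKM in WT EBs (−2.51 ± 0.22, limma adjusted p = 0.000237). Hist1h4n was at 394 and 325 RPKM in Eed null EBs, against 845 and 890.1 RPKM in WT EBs (−1.28 ± 0.16, limma adjusted p = 0.00103). Neither of these H4 rows overlapped between genotypes. The H2B row Hist1h2bp was at 25.9 and 19.6 RPKM in Eed null EBs, against 76.6 and 69.0 RPKM in WT EBs (−1.67 ± 0.15, limma adjusted p = 0.000245). Hist1h3i, an H3 row with 87.6% of its windows shared, was at 143 and 124 RPKM in Eed null EBs, against 313 and 285 RPKM in WT EBs (−1.16 ± 0.13, limma adjusted p = 0.000643). Hist1h2ak, an H2A row, was at 395 and 315 RPKM in Eed null EBs, against 753.9 and 684 RPKM in WT EBs, a change of −1.02 ± 0.16. The low H3 row Hist2h3c2 was at 2.65 and 2.61 RPKM in Eed null EBs, against 6.31 and 5.36 RPKM in WT EBs, a change of −1.01 ± 0.23. The other 16 rows that fell had log2 changes of −0.99 to −0.48 and included 3 linker histones, Hist1h1c, Hist1h1d and Hist1h1e, and the H2A row Hist1h2al (−0.84), a processed pseudogene in GENCODE M21. Of all 28 calls, 17 remained whichever library was left out, and their number ran from 17 without the first WT EB library to 34 without the first Eed null EB library.

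**Figure D2:**
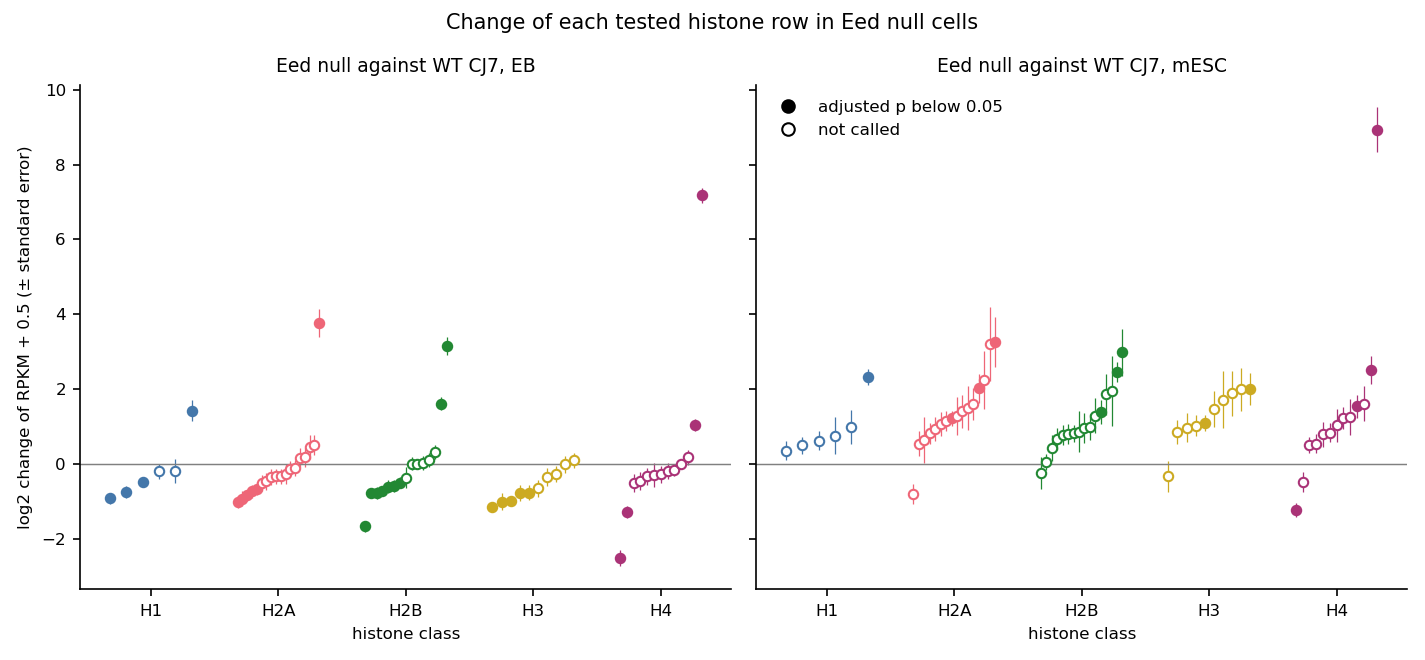
Log2 change with its SE for each tested row, by histone class, in Eed null against WT, with EBs in the left panel and mESCs in the right, filled where the adjusted p was below 0.05. In EBs most points lie below 0 and a few H4, H2A, H2B and H1 rows lie far above, while in mESCs 56 of 61 points lie above 0.

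In Eed null mESCs nearly all histone rows had positive changes, and the rows that rose in EBs were among those that rose here. Of 61 rows tested, 12 rose and 1 fell, and 9 were too low to test. A fit of all 14 mESC libraries gave 34 rises and 2 falls, and each fit that left out 1 of the 4 libraries gave 3 calls. The share of rows that rose was 19.7% and the share that fell 1.64%, against 5.32% higher and 3.27% lower among all 21012 genes tested, 8.59% in all. These shares come from the fit that gave 12 rises and 1 fall, and those of the other fits are not given here. The median log2 change was 1.03, against 0.05 for all genes. An unadjusted limma p below 0.05 was found for 42 of the 61 rows and for 5484 of all 21012 genes. By class 1 of 6 H1 rows rose, 3 of 16 H2A, 3 of 16 H2B, 2 of 10 H3 and 3 of 13 H4, and the medians ran from 0.69 for H1 to 1.28 for H3. All 6 rows that rose in EBs were also among the 12 that rose in mESCs. These comparisons share no library but are of the same CJ7 genotypes, and the overlap among all genes was not counted. The single fall, Hist1h4i, was among the 22 falls in EBs.

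Hist1h4m was again the largest rise. It was at 293 and 275 RPKM in Eed null mESCs, against 0 and 0.183 RPKM in WT mESCs, about 1637 and 1485 reads against 0 and 0.998 reads. The ratio of reads scaled to depth was 2805, with a 95% counting interval of 503 to 110840, which is wide because WT held 1 read in all. The fitted log2 change of 8.93 ± 0.60 (limma adjusted p = 0.000957) depends on the 0.5 RPKM added and is no bound. In the other CJ7 and CCE groups, EBs and mESCs alike, Hist1h4m did not exceed 3.12 RPKM, so its high level was seen in Eed null libraries of both stages and in none of the other 11 groups.

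Among called rows the TH2A and TH2B genes followed in size of change. The H2A row Hist1h2an, with 85.8% of its windows shared, had a log2 change of 3.22 but was not called. Its levels were 123 and 129 RPKM in Eed null mESCs, against 9.21 and 18.5 RPKM in WT mESCs. Hist1h2aa was at 226 and 212 RPKM in Eed null mESCs, against 19.96 and 25.1 RPKM in WT mESCs (3.26 ± 0.66, limma adjusted p = 0.0321). Hist1h2ba was at 203 and 193 RPKM in Eed null mESCs, against 18.4 and 33.1 RPKM in WT mESCs (2.98 ± 0.63, limma adjusted p = 0.0364). The K754M and K754R mESC libraries also had both genes, at 14.1 to 52.7 RPKM for Hist1h2aa and 17.6 to 60.7 RPKM for Hist1h2ba, with the second library of each well above the first. Hist1h1t was at 21.1 and 19.3 RPKM in Eed null mESCs, against 4.28 and 3.07 RPKM in WT mESCs (2.33 ± 0.21, limma adjusted p = 0.0026). EloA WT CCE mESCs, at 11.9, 15.9 and 15.6 RPKM, lay between these groups for Hist1h1t.

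Hist1h4j was at 497 and 482 RPKM in Eed null mESCs, against 86.7 and 85.8 RPKM in WT mESCs (2.50 ± 0.37, limma adjusted p = 0.0134). Hist1h2bm was at 358 and 343 RPKM in Eed null mESCs, against 77.3 and 51.7 RPKM in WT mESCs (2.46 ± 0.27, limma adjusted p = 0.00472). For both genes the Eed null libraries lay close together and stood above all 12 other mESC libraries, CCE included, where Hist1h4j did not exceed 238 and Hist1h2bm 191 RPKM. The other 6 rises had log2 changes of 1.09 to 2.02 and were Hist1h2ac, Hist1h3a, Hist1h4k, Hist3h2ba, Hist2h2ab and Hist1h3d. Hist1h4i was at 98.4 and 87.6 RPKM in Eed null mESCs, against 237 and 202 RPKM in WT mESCs (−1.23 ± 0.19, limma adjusted p = 0.0144). The 3 calls that held whichever of the 4 libraries was left out were Hist1h4m, Hist1h2bm and Hist1h1t.

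**Figure D3:**
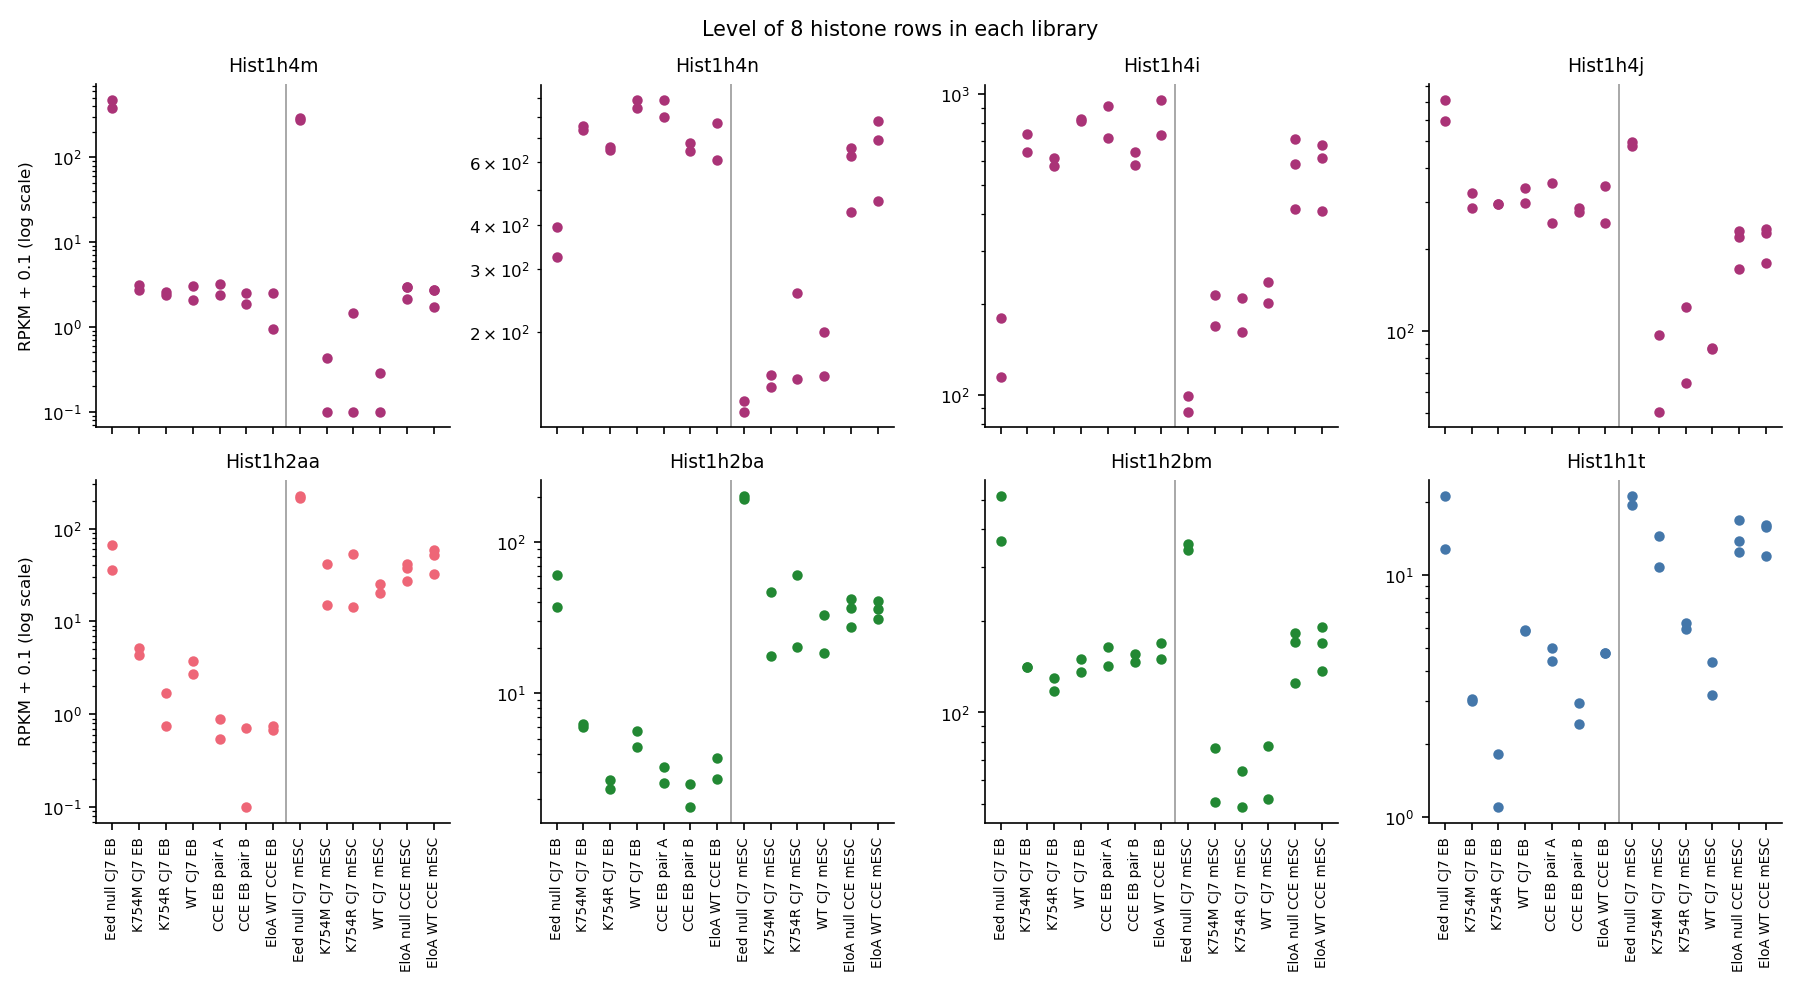
Level of 8 histone rows in each library (RPKM + 0.1, log axis), with EB groups left of the grey line and mESC groups right of it, and 1 point per library. Hist1h4m stands at 275 to 474 RPKM in the 4 Eed null libraries and at no more than 3.12 RPKM in the 24 others, and Hist1h4i has its lowest EB and its lowest mESC levels in Eed null.

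The opposite changes of H4 rows that share windows were read as sums too. Of the windows of Hist1h4m, 89.8% occurred in Hist1h4n but only 34.3% in Hist1h4i, so only the first pair is near-identical. Hist1h4m and Hist1h4i have 402 and 727 exon bases in GENCODE M21. Reads moved between these rows would therefore not leave their RPKM sum unchanged. Hist1h4m and Hist1h4n together had 869 and 702 RPKM in Eed null EBs, against 847 and 893 RPKM in WT EBs, so that the pair's sum overlapped between genotypes in EBs. In mESCs that sum was 422 and 395 RPKM in Eed null, against 201 and 151 RPKM in WT, without overlap. Hist1h4m and Hist1h4i together had 653 and 492 RPKM in Eed null EBs, against 827 and 818 RPKM in WT EBs, and 391 and 362 RPKM in Eed null mESCs, against 237 and 202 RPKM in WT mESCs. Whether reads of 1 copy were counted for another was not tested. In the H4 sum, Hist1h4m made up 3.88% in Eed null EBs against 0.0187% in WT EBs, and 3.39% in Eed null mESCs against 0.00224% in WT mESCs. Hist1h4i made up 1.32% in Eed null EBs against 6.15% in WT EBs, and 1.11% in Eed null mESCs against 5.07% in WT mESCs. Without Hist1h4m the H4 sum was 12361 and 8889.5 RPKM in Eed null EBs against 14243 and 12520.0 RPKM in WT EBs, and 8362 and 7803 RPKM in Eed null mESCs against 4571 and 4084 RPKM in WT mESCs.

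Rows with few shared windows had medians of the same sign as the rest. Among rows with at most 25% of windows shared, 3 of 17 rose and 6 fell in Eed null EBs (median −0.20), and among the rest 3 of 45 rose and 16 fell (median −0.35). In Eed null mESCs 6 of 18 such rows rose and none fell (median 1.16), and 6 of the other 43 rose and 1 fell (median 1.02). Over all genes tested, 19.2% were called higher and 11.2% lower in Eed null EBs, and 5.32% higher and 3.27% lower in Eed null mESCs.

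Along chromosome 13 the Hist1 rows lie in a first stretch of 24 rows (21715763 to 22043676) and a second stretch of 31 rows (23531050 to 23934851), both in GRCm38, with Hist1h2al apart from them. In Eed null EBs 3 of 22 tested rows of the first stretch rose and 7 fell (median −0.33), and 3 of 31 rows of the second rose and 12 fell (median −0.45). In Eed null mESCs 4 of 20 tested rows of the first stretch rose and 1 fell (median 1.35), and 6 of 31 rows of the second rose and none fell (median 0.99). The shares over all genes were 19.2% higher and 11.2% lower in Eed null EBs, and 5.32% higher and 3.27% lower in Eed null mESCs. Hist1h2bm and Hist1h4j are neighbours in the first stretch, and Hist1h2ba and Hist1h2aa stand next to each other at the far end of the second. Hist1h4m and Hist1h4n are also neighbours, and the H2A rows on either side of them, Hist1h2ao and Hist1h2ap, did not exceed 0.996 and 0.587 RPKM in any library. Hist1h2ao and Hist1h2ap shared 93.5% and 93.1% of their windows with other genes. Their low values are therefore uncertain, since how reads with several possible origins were counted is not given.

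**Figure D4:**
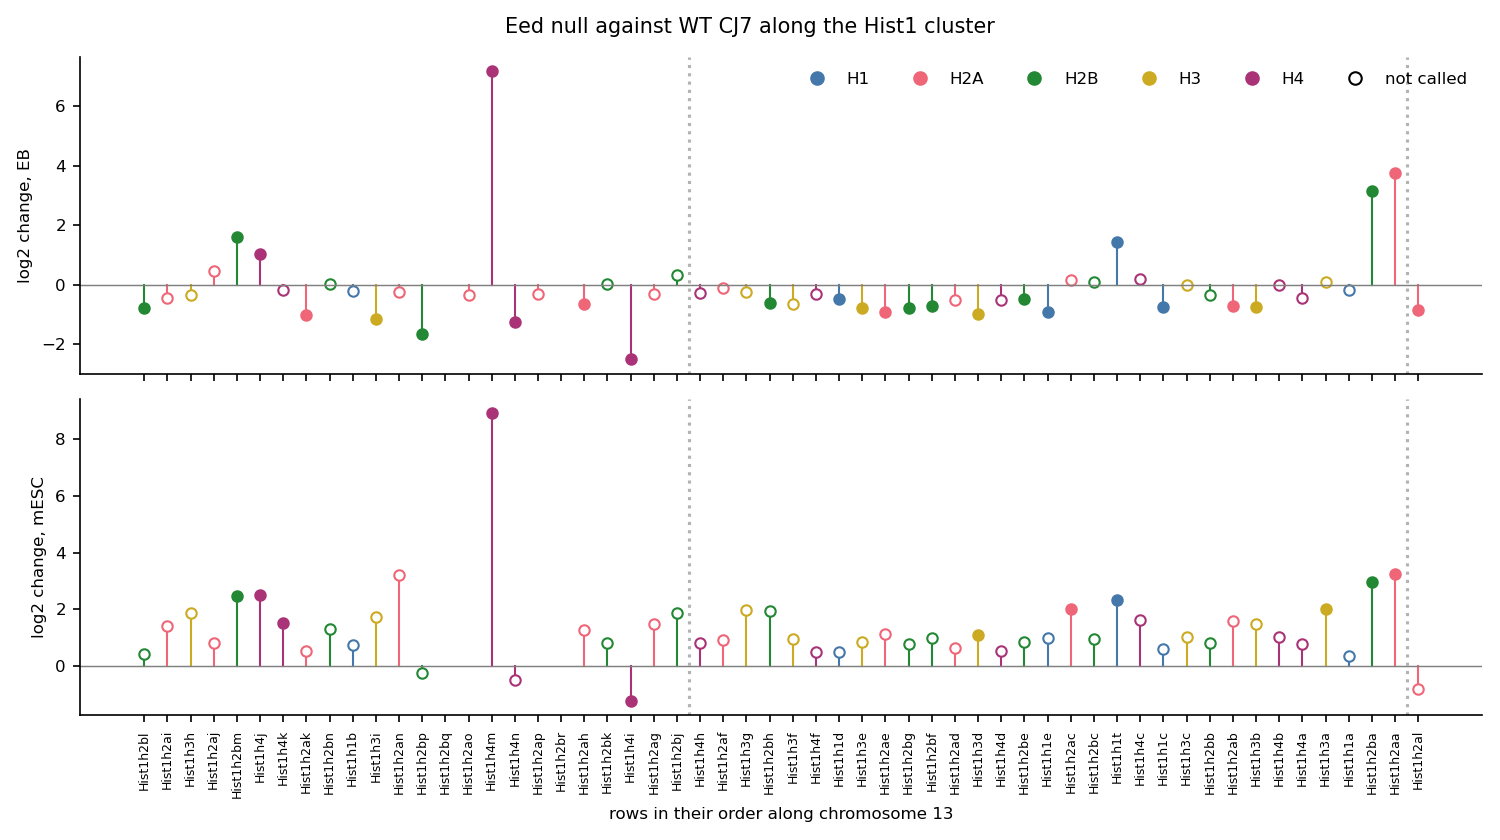
Log2 change of Eed null against WT for each Hist1 row in its order along chromosome 13, with EBs above and mESCs below, coloured by class, open where not called, and dotted lines between the first stretch, the second stretch and Hist1h2al. The rises of Hist1h4m, of Hist1h2bm with Hist1h4j, and of Hist1h2ba with Hist1h2aa appear in both panels. In EBs Hist1h4m stands beside Hist1h4n, which was called lower. Hist1h2aj and Hist1h4k, on either side of Hist1h2bm with Hist1h4j, and Hist1h1a, before Hist1h2ba, were not called in EBs.

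Promoter motifs were set beside these calls. Of rows with an octamer, 3 of 12 rose and 4 fell in Eed null EBs (median −0.05), against 3 of 43 that rose and 17 that fell among rows without one (median −0.35). In Eed null mESCs 4 of 13 rows with an octamer rose (median 1.28), and 7 of 41 without one rose and 1 fell (median 1.02). Of rows with an AC box, 4 of 9 rose and 4 fell in Eed null EBs (median −0.20), against 2 of 46 that rose and 17 that fell among rows without one (median −0.35). Among rows with an AC box 4 of 9 rose in Eed null mESCs (median 1.60), and 7 of 45 without one rose and 1 fell (median 1.07). Hist1h2aa and Hist1h2ba, counted as separate rows here, share most of 1 promoter stretch. These counts are descriptions and carry no test. Beside them, 19.2% of all genes were called higher and 11.2% lower in Eed null EBs, and 5.32% and 3.27% in Eed null mESCs. The share called among all genes with each motif is not given here.

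The change between Eed null and WT differed between stages for a large part of the family. The difference, taken as the Eed effect in EBs minus that in mESCs in a fit of all 16 CJ7 libraries, was lower in 25 of 60 rows tested and higher in none. Among all 17757 genes tested, 15.2% were called, 8.95% higher and 6.22% lower. The median difference was −1.39, against 0.01 for all genes, and 58 of 60 rows were below 0. By class the calls were 3 of 6 H1 rows, 6 of 16 H2A, 3 of 15 H2B, 8 of 10 H3 and 5 of 13 H4, with medians from −0.97 for H1 to −1.99 for H3.

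H3 rows made up 4 of the 5 largest differences, and most of these calls were lost when 1 library was left out. Hist1h3i was at 83.5 and 79.8 RPKM in Eed null mESCs, against 24.2 and 24.7 RPKM in WT mESCs, while it fell in Eed null EBs as given above. Its difference between stages was −2.88 ± 0.83 (SE, limma adjusted p = 0.0379), and it was called in 0 of the 8 fits that left out 1 library (limma adjusted p = 0.0718 to 0.107). Hist1h3b was at 328 and 254 RPKM in Eed null EBs, against 567 and 427 RPKM in WT EBs, and at 177 and 170.1 RPKM in Eed null mESCs, against 66.8 and 58.0 RPKM in WT mESCs (difference −2.24 ± 0.56, limma adjusted p = 0.0199, called in 3 of the 8 such fits). Hist1h3g and Hist1h3h had differences of −2.26 ± 0.66 and −2.23 ± 0.68 (limma adjusted p = 0.0406 and 0.0466), and each was called in 0 of the 8 such fits. The leading H2A row Hist1h2ab was at 532 and 426 RPKM in Eed null EBs, against 863 and 724 RPKM in WT EBs, and at 319 and 307 RPKM in Eed null mESCs, against 113 and 93.5 RPKM in WT mESCs. Its difference was −2.33 ± 0.48 (limma adjusted p = 0.00729), called in all 8 such fits.

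Of the rows called in both Eed null comparisons, Hist3h2ba and Hist1h3d changed direction, rising in mESCs and falling in EBs. Both mESC rises lost their call whichever library was left out. The EB fall of Hist3h2ba lost it without either WT EB library, and that of Hist1h3d kept it throughout. Hist3h2ba, an H2B gene outside the Hist1 cluster, was at 54.8 and 39.8 RPKM in Eed null EBs, against 68.6 and 72.4 RPKM in WT EBs, and at 31.3 and 29.6 RPKM in Eed null mESCs, against 12.98 and 9.96 RPKM in WT mESCs. Its difference between stages was −1.97 ± 0.37 (limma adjusted p = 0.00479). Hist1h3d was at 47.2 and 44.6 RPKM in Eed null EBs, against 98.6 and 85.1 RPKM in WT EBs, and at 42.7 and 44.9 RPKM in Eed null mESCs, against 21.8 and 19.0 RPKM in WT mESCs. Its difference was −2.08 ± 0.25 (limma adjusted p = 0.000288). Of the 25 calls 6 were made whichever of the 8 libraries was left out, among them Hist3h2ba, Hist1h3d and Hist1h2ab, and the count was 26 without the first Eed null EB library and 6 to 14 without any 1 of the other 7, lowest without the first Eed null mESC library. The WT mESC libraries, which stand apart as given above, enter every one of these differences, and their part was not tested. The mean summed level of WT EBs was 3.01 times that of WT mESCs in CJ7 and 1.17 times in CCE.

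**Figure D5:**
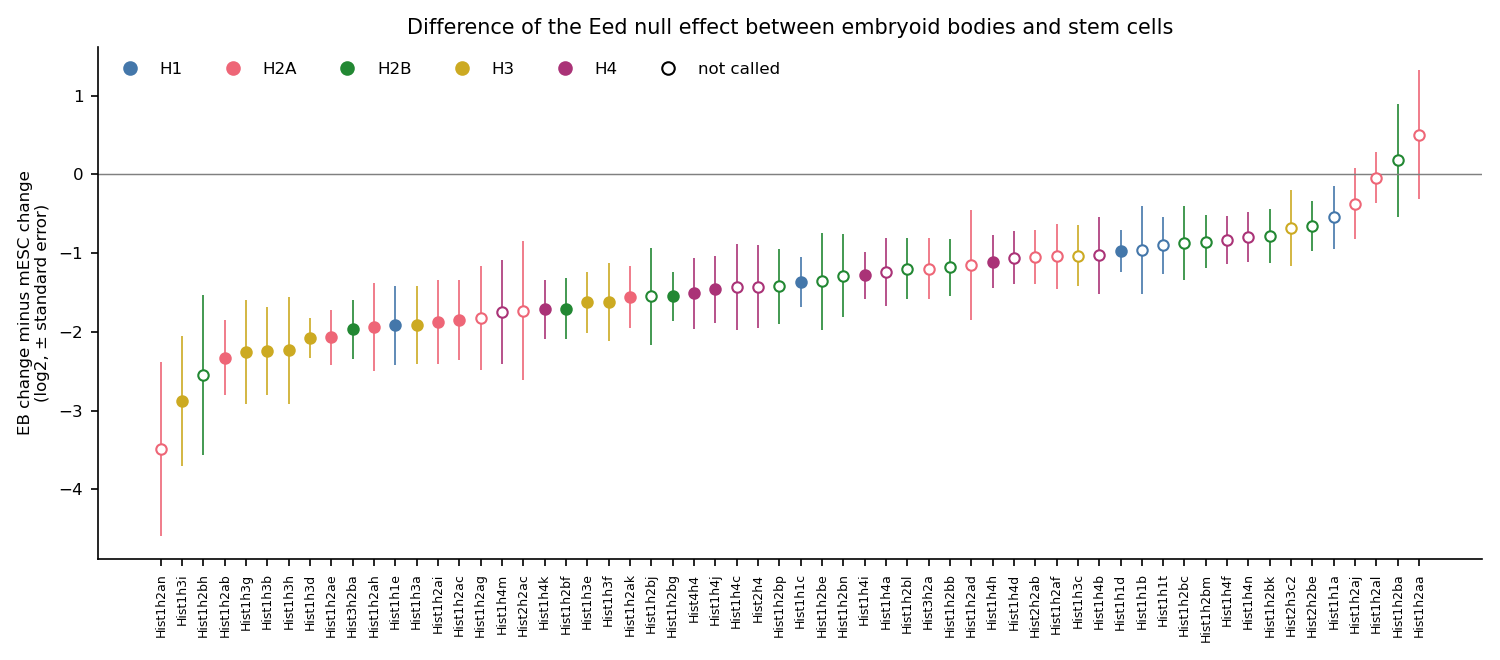
Difference of the Eed null effect between stages (log2, EB effect minus mESC effect, with SE) for the 60 rows tested, sorted by size and filled where the adjusted p was below 0.05. The 25 filled points all lie below 0, and 58 of 60 points do.

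The EloA K754M substitution gave few calls among histone rows. In K754M EBs 1 of 62 rows tested was called, a fall of Hist3h2ba, against 0.565% of all genes, 0.181% higher and 0.383% lower, and the median was −0.10 with 45 of 62 rows below 0. Hist3h2ba was at 25.9 and 25.8 RPKM in K754M EBs, against 68.6 and 72.4 RPKM in WT EBs (−1.43 ± 0.15, limma adjusted p = 0.0219). Over all genes the K754M EB calls were 35 higher and 74 lower, and 14 higher and 58 lower under median-ratio scaling. For Hist3h2ba the K754M libraries were nearly equal and well below WT, but the call was lost whichever of the 4 libraries was left out. In K754M mESCs limma called none of 61 rows and 0.0% of all genes. Unadjusted p was below 0.05 for 4 rows and for 2103 of all 21012 genes. The median there was −0.12 with 44 of 61 rows below 0, against 0.03 for all genes.

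In K754R EBs 4 of 62 rows fell and none rose, against 9.68% of all genes called, 4.82% higher and 4.85% lower. The median was −0.26, against 0.01 for all genes, and 54 of 62 rows were below 0. Hist1h1t was at 0.996 and 1.72 RPKM in K754R EBs, against 5.80 and 5.76 RPKM in WT EBs (−1.79 ± 0.27, limma adjusted p = 0.0112). Of 4 male germ cell markers tested, 3 fell with it in K754R EBs. All 8 listed markers together summed to 0.579 to 0.723 RPKM there, against 2.95 to 4.80 RPKM in WT EBs, and their part was not tested. Hist3h2ba was at 39.1 and 40.0 RPKM in K754R EBs, against 68.6 and 72.4 RPKM in WT EBs (−0.82 ± 0.15, limma adjusted p = 0.0212). Both rows lay below WT in both K754R libraries. Hist1h3d was at 53.9 and 61.7 RPKM in K754R EBs, against 98.6 and 85.1 RPKM in WT EBs (−0.66 ± 0.12, limma adjusted p = 0.0208). Hist1h2bf, an H2B row, was at 124 and 129 RPKM in K754R EBs, against 197 and 194 RPKM in WT EBs (−0.63 ± 0.12, limma adjusted p = 0.0244). Leaving out 1 library kept Hist1h1t called in 2 of 4 cases and the other 3 rows in none. In K754R mESCs limma called none of 61 rows, against 0.162% of all genes, 0.0761% higher and 0.0857% lower, and the median was 0.13. Unadjusted p was below 0.05 there for 2 rows and for 3000 of all 21012 genes. All CJ7 comparisons of a stage share the same 2 WT libraries, so that calls of Hist3h2ba in Eed null, K754M and K754R EBs rest on 1 pair of WT values.

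Hist1h1t was the 1 row whose K754M and K754R effects differed between stages. It was at 2.91 and 2.97 RPKM in K754M EBs, against 5.80 and 5.76 RPKM in WT EBs, and at 14.3 and 10.6 RPKM in K754M mESCs, against 4.28 and 3.07 RPKM in WT mESCs. Within a stage neither K754M change was called. The difference was −2.51 ± 0.36 (limma adjusted p = 0.0283) for K754M, and −2.45 ± 0.36 (limma adjusted p = 0.00717) for K754R. Among all genes 0.163% were called for K754M, 0.0788% higher and 0.0845% lower, and 2.03% for K754R, 0.817% higher and 1.21% lower. These shares are of the fit with every library and not of the fits that left 1 out. Hist1h1t was at 6.24 and 5.85 RPKM in K754R mESCs. The K754R call was made in all 8 fits that left out 1 library and the K754M call in 1 of 8. Over the 60 rows tested the median difference was 0.03 for K754M and −0.41 for K754R, and 18 rows were called for K754R without the first K754R mESC library.

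In EloA null CCE mESCs, without pairing the libraries by their replicate number, limma called none of 61 histone rows, and the median was −0.04. Among all genes 3.35% were called, 2.12% higher and 1.23% lower. Unadjusted p was below 0.05 for 1 row and for 3282 of all 18460 genes. The summed level was 25972 ± 3950 RPKM in EloA null and 27104 ± 3975 RPKM in EloA WT (SD, n = 3 each), a difference within the spread of either group. Libraries of the same number varied together here, and a fit with the replicate number as a block called 7 rows, 2 higher and 5 lower, against 12.4% of all genes, 6.67% higher and 5.72% lower. These changes were small: Hist1h2bh rose by 0.30 (limma adjusted p = 0.0137) and Hist1h1e by 0.18, while Hist1h2aa (−0.41, limma adjusted p = 0.019), Hist3h2ba (−0.37), Hist1h2bg (−0.30), Hist1h2bc (−0.14) and Hist1h1c (−0.14) fell. Hist1h2bh was at 242, 263 and 275 RPKM in EloA null mESCs, against 204, 217 and 210.2 RPKM in EloA WT mESCs, and all EloA null libraries were above all EloA WT ones. Hist1h2aa was at 27.3, 37.2 and 41.8 RPKM in EloA null mESCs, against 32.5, 52.0 and 59.1 RPKM in EloA WT mESCs, with ranges that overlapped.

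In CCE EBs no histone row was called in either pair against EloA WT. limma called none of 63 rows and 0.0% of all genes in pair A. In pair B it called none of 63 rows and 0.135% of all genes, 0.107% higher and 0.0282% lower. Unadjusted p was below 0.05 for 1 row and 1166 of all 17735 genes in pair A. In pair B it was for 3 rows and 2746 genes. The medians were −0.02 in pair A and −0.06 in pair B. In pair B all 6 H1 rows were below 0, with a median of −0.44. Hist1h1t was at 2.31 and 2.86 RPKM in pair B, against 4.66 and 4.65 RPKM in EloA WT EBs (−0.75 ± 0.16, limma adjusted p = 0.12).

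Few of the factors that make and process histone messenger RNA passed the test. Among all genes tested in Eed null EBs 19.2% were called higher and 11.2% lower, so the falls below lie near the background and the rise under it. Of 20 genes for histone pre-mRNA processing and transcription, 1 rose and 2 fell in Eed null EBs: Srrt, which helps couple cap binding to RNA processing (0.69), Eri1, an exonuclease that acts on the histone stem-loop (−0.87), and Lsm11, a part of the U7 particle that cleaves histone pre-mRNA (−0.70). None was called in Eed null mESCs, against 5.32% higher and 3.27% lower among all genes, and the median of the 20 was −0.14 there. Slbp had changes of −0.00 in EBs and −0.13 in mESCs, and Npat, the coactivator of histone transcription, of −0.42 and −0.23, none of them called. Zfp473, a zinc finger protein of the same processing complex, fell in K754R EBs (−0.68), where 4.85% of all genes were called lower.

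Of 22 histone chaperones and enzymes that acetylate new histones, 4 rose and none fell in Eed null EBs, where 19.2% of all genes were called higher and 11.2% lower. These were the importin Ipo4 (0.78), the H3.3 chaperone subunit Daxx (0.68), Hirip3 (0.54) and the acetyltransferase Hat1 (0.52). None of the 22 was called in Eed null mESCs. In EloA null CCE mESCs Supt16h, a subunit of the chaperone FACT, and Dnajc9 rose (0.67 and 0.40), against 2.12% higher among all genes. In K754R EBs Supt16h rose (0.49) and Hat1 fell (−0.52), against 4.82% higher and 4.85% lower among all genes.

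Replication-independent histone variants, whose genes are made outside S phase too, gave 1 rise and 4 falls among 12 tested in Eed null EBs, beside the same 19.2% higher and 11.2% lower among all genes. H2afy, a macroH2A, rose (0.77), and H2afy2, the other macroH2A (−1.18), H1f0, the H1 of non-dividing cells (−1.03), the H2A.Z gene H2afv (−0.59) and the H3.3 gene H3f3b (−0.40) fell. In Eed null mESCs H1f0 (1.48) and the H3.3 gene H3f3a (0.79) rose and H2afv fell (−0.57), against 5.32% higher and 3.27% lower among all genes. H1f0 was at 69.1 and 65.1 RPKM in Eed null EBs, against 129.5 and 146 RPKM in WT EBs, and at 50.3 and 51.1 RPKM in Eed null mESCs, against 18.4 and 17.4 RPKM in WT mESCs. The stage difference of H1f0 was −2.51, the same direction as that of most replication-dependent rows.

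Genes of DNA replication and the G1/S transition were called in both directions in Eed null EBs. In Eed null EBs 4 of 26 rose, among them Ccne1 (cyclin E1, 1.46), Rrm2 (0.91) and Ung (0.77), and 3 fell, Gins2 (−0.98), Ccne2 (−0.75) and Prim1 (−0.40), with a median of 0.09. Both counts are near the 19.2% higher and 11.2% lower of all genes. Their summed level was 1248 to 1258 RPKM in Eed null EBs and 1094 to 1229.6 RPKM in WT EBs. In Eed null mESCs Cdt1 (−0.98) and Cdc6 (−0.71) fell and none rose, against 3.27% lower and 5.32% higher among all genes. The sum there was 1709 to 1716 RPKM in Eed null and 1830.0 to 1985 RPKM in WT. Of 14 mitosis genes Aurka (0.89) and Cdc20 (0.62) rose and Bub1 (−0.89) fell in Eed null EBs, and none was called in Eed null mESCs. The share of cells in S phase was not measured.

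Markers of cell state and of other cells moved with genotype, and their part in the histone results was not tested. Beside the counts below, 19.2% of all genes were called higher and 11.2% lower in Eed null EBs. The shares were 4.82% higher and 4.85% lower in K754R EBs, and 5.32% higher and 3.27% lower in Eed null mESCs. The 8 stem cell markers, Pou5f1 and Nanog among them, summed to 1957 to 2524 RPKM in Eed null EBs, 423 to 453 in K754M EBs, 45.7 to 62.2 in K754R EBs and 289 to 372 in WT EBs, with 7 higher in Eed null and 5 lower in K754R. The 8 EB markers summed to 114 to 165 RPKM in Eed null EBs against 248 to 281 RPKM in WT EBs, with 6 lower. In mESCs the stem cell sum was 2626 to 2772 RPKM in Eed null and 2554 to 2870.1 RPKM in WT, and 1 marker, Sox2, was lower. The EB marker sum was 37.5 to 40.5 RPKM in Eed null mESCs against 8.07 to 11.8 RPKM in WT mESCs. Of 5 EB markers tested there, 1 was higher and 0 were lower. Feeder fibroblast markers summed to 5.47 to 6.63 RPKM in Eed null EBs, against 2.05 to 3.56 RPKM in WT EBs. Their sum was 11.9 to 19.8 RPKM in K754R EBs. Of 7 tested in EBs, 3 were higher in Eed null and 4 in K754R. The feeder sum was 170.4 to 253 RPKM in Eed null mESCs against 138 to 171 RPKM in WT mESCs. Of 8 feeder markers tested in Eed null mESCs, 0 were higher and 1 was lower. Male germ cell markers, listed because TH2A, TH2B and H1t are germline forms, summed to 11.86 to 11.97 RPKM in Eed null EBs and 0.579 to 0.723 RPKM in K754R EBs, against 2.95 to 4.80 RPKM in WT EBs. Of 4 tested in EBs, Dazl and Ddx4 were higher in Eed null, where Tnp1 and Prm2 were at 0, and Ddx4, Sycp3 and Tekt1 were lower in K754R. In mESCs the germ cell sum was 53.3 to 56.6 RPKM in Eed null against 55.2 to 70.9 RPKM in WT, with Tekt1 lower. The late spermatid genes Prm1, Prm2 and Tnp1 did not exceed 0.851 RPKM in any library.

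Snord118 moved with genotype in EBs as well. It was at 17.2 and 33.5 RPKM in Eed null EBs, against 109 and 127 RPKM in WT EBs (−2.27, limma adjusted p = 0.00109), and at 36.1 and 43.8 RPKM in K754R EBs (−1.55, limma adjusted p = 0.0194). In K754M EBs it was at 44.4 and 42.3 RPKM, which did not pass the test. In mESCs it was at 42.2 and 45.2 RPKM in Eed null, against 1279 and 864 RPKM in WT (−4.57, limma adjusted p = 0.0202). Its direction was thus the same as that of most histone rows in EBs and the opposite in mESCs, and its part in either was not tested.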

How the data were processed

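Ribosomal RNA-depleted total RNA was sequenced in 28 libraries of 13 groups. The deposited values are RPKM per gene, made by the authors, in 1 table for mESCs and 1 for EBs. Per the submitters' processing notes, CASAVA 1.7, STAR and build mm9 were used. The sources used here do not give the counter, annotation release, use of strand or handling of reads with several origins. Read counts were not used here. Depth was estimated from the RPKM of rows with 1 to 3 reads (tolerance 0.02 reads), and counting intervals cover counting error only.

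Coordinates and transcripts came from GENCODE M21 (GRCm38), with 58 histone rows matched by ID and 12 by symbol, and promoters from RefSeq (GRCm38.p6). No mm9 genome was used, so no coordinate is in the build of the files. Genes with at least 0.25 RPKM in at least 2 libraries of a fit were tested with limma-trend (limma 3.58.1, R 4.3.3) on log2(RPKM + 0.5), which understates changes of low rows. For comparisons with WT each line and stage was fitted apart, within its table, and p-values were adjusted by Benjamini and Hochberg over all genes tested, with calls below 0.05. There were 9 comparisons with WT and 3 differences between stages, these in 1 fit of the CJ7 libraries of both tables, as a contrast of effects each taken within its own table. The fit was tested on simulated data. Tables and figures were made with Python 3.11.15, pandas 2.3.3 and matplotlib 3.10.9.

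In CCE mESCs same-numbered EloA null and EloA WT libraries varied together (correlations of deviations from group means 0.512, 0.216 and 0.242), so the replicate block is given beside that result. The pairing comes from these correlations and not from the labels, which give the numbers only.

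Named rows were the up to 6 largest called changes each way per comparison, the most abundant row of each class, rows called in at least 3 comparisons, the 5 largest stage differences, Eed and Tceb3, and up to 3 called genes each way of each fixed list. Other names were chosen after their values were seen. Members and lists were chosen with earlier results of these data known. Alternatives were another pseudocount (0.1), no filter, median-ratio scaling, the replicate block, a fit of all libraries of a table and leaving out each library.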

Additional observations from a re-analysis of the deposited data

Results flagged for a closer look

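Differences of an effect between stages are repeated here because the test was of the difference itself. The Eed null effect in EBs minus that in mESCs was called in 25 histone rows, all lower. The largest were Hist1h3i (−2.88), Hist1h2ab (−2.33), Hist1h3g (−2.26), Hist1h3b (−2.24) and Hist1h3h (−2.23) on the log2 scale. Of these, only Hist1h2ab was called in all 8 fits that left out 1 library, Hist1h3b was called in 3, and Hist1h3i, Hist1h3g and Hist1h3h in 0. The K754M effect differed between stages in 1 row, Hist1h1t (−2.51, called in 1 of 8 such fits), and the K754R effect in 1 row, also Hist1h1t (−2.45, called in 8 of 8). The K754M and K754R differences share their WT libraries. Each difference, that of Eed null included, uses the WT mESC libraries that stand apart, and the part of those libraries was not tested. Groups held 2 or 3 libraries, so single libraries were not tested as outliers.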

How the results depend on the processing

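Among single histone rows the alternatives other than leaving out a library gave 241 values with the same direction and side of the threshold, 9 that lost the call, 3 that gained it and none reversed. Median-ratio scaling gave 1 call in EloA null CCE mESCs. A fit of all libraries of the table gave 36 calls in Eed null mESCs (34 higher, 2 lower), against 13, and 3 in K754M mESCs, against 0. Without the filter the Eed stage difference had 16 calls, against 25, and Hist1h2aa and Hist1h2ba in Eed null mESCs had limma adjusted p = 0.0512 and 0.057. With the replicate block there were 21 calls in Eed null mESCs (20 higher, 1 lower), 7 in EloA null CCE mESCs, 7 in K754R EBs, 1 in pair B (Hist1h1t, limma adjusted p = 0.0449) and 38 in the Eed stage difference. In groups of 2 the libraries share a number only, with correlations of 0.0334 to 0.348 in CJ7 mESCs, 0.0116 to 0.229 in CJ7 EBs and 0.183 to 0.425 in CCE EBs. The share of all genes called is given above for the block in EloA null CCE mESCs. It was not set beside the other counts of alternative fits here.

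Leaving out 1 library gave 17 to 34 calls in Eed null EBs, 3 in each Eed null mESC fit, 0 in each K754M EB fit, 0 to 1 in K754R EBs, 0 to 1 in EloA null CCE mESCs, and 6 to 26, 0 to 1 and 1 to 18 in the Eed, K754M and K754R stage differences. The comparisons of K754M and K754R mESCs and of pairs A and B stayed at 0. Among single rows 150 values kept direction and side of the threshold and 81 lost the call. Another 11 values reversed, none of them called. Hist1h1t ran from −0.15 to 0.074 in EloA null mESCs (0.048 and 0.037 also reversed) and from −0.098 to 0.064 in pair A. Hist1h3d ran from −0.27 to 0.38 in K754R mESCs (−0.040 also reversed), from −0.14 to 0.083 in EloA null mESCs (0.017 also reversed) and from −0.17 to 0.089 in pair A (0.000271 also reversed). Hist3h2ba ran from −0.26 to 0.15 in pair B. Beyond fewer samples in these fits the cause was not tested. The share of all genes called in each fit without a library was not set beside its count. Depth, lowest in CJ7 mESCs, limits rows of a few reads.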
